A study of Mus musculus with 6 samples.

Results

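Cyp11a1, Fdx1, Fdxr and Tspo were followed as the mitochondrial machinery that starts steroid synthesis, in bulk RNA of sorted mouse embryo cells. All 4 genes were found by symbol among the 17913 rows of the deposited FPKM table, and 17909 genes with a single row were used. The genes were chosen by the FPKM of Cyp11a1, which was known to be higher at each stage of the mast cell lineage in these same libraries. Its levels are therefore given as a description and support nothing, and those of the other 3 genes are read beside it. All cells came from C57BL/6xFVB embryos and had been sorted with a fate-mapping model in which Csf1r, a myeloid gene, drives Cre. The 6 groups were E11.5 fetal liver erythro-myeloid progenitors (EMPs), E11.5 fetal liver mast cell progenitors (MCPs), limb MCPs of both E11.5 and E14.5, skin cells at E16.5 titled MCPs but described as mast cells, and fetal liver macrophages (MAC) at E11.5. Cre marks the cells by their history, so the label alone does not separate mast cells from other EMP progeny, and the sources used here do not say how many embryos went into a library. Each group held 1 library, so there was no replicate spread, no standard error and no significance test.

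Cyp11a1 encodes the cytochrome of the inner mitochondrial membrane that cuts the side chain off cholesterol and so makes pregnenolone, the precursor of all steroid hormones. The enzyme needs electrons, which ferredoxin reductase (Fdxr) takes from NADPH and passes to ferredoxin (Fdx1), a small iron-sulfur protein that carries them to Cyp11a1 and to the other mitochondrial cytochromes of this family. Tspo encodes an outer mitochondrial membrane protein that binds cholesterol and porphyrins, and its need for steroid synthesis has been disputed. In adrenal and gonad cells, Star brings cholesterol to the enzyme and the nuclear receptor Nr5a1 drives the pathway. Outside these organs, Cyp11a1 has been described in mast cells, basophils and some T cells.

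FPKM counts the fragments of a gene relative to its transcript length and to the mapped fragments of the library, so levels of different genes can be set side by side. Depth, inferred from the smallest steps between values, lay between 8900000 and 12750000 fragments per library. From it and the transcript length, a 95% Poisson interval was placed around each value, which covers counting error only, since reads without molecular identifiers are not independent molecules. The labels were checked against marker genes. Of 9 mast cell markers, 5 reached an FPKM of 1 in EMPs, 6 in liver MCPs, 6 and 9 in limb MCPs of E11.5 and E14.5, 8 in skin cells and 4 in the macrophage-labelled library. That library also carried the eosinophil markers Prg2 and Epx at a summed 6354 FPKM, against 62.4 FPKM for its 5 macrophage markers. The skin library stood apart. Its FPKM sum was 84036, against 140044 to 169289 elsewhere, and of 1660 genes with at least 10 FPKM in the other 5 libraries it listed 87 below 1 and 26 at 0. Of the 4 genes, Tspo alone is among the 1660, and it read 1.7 FPKM in skin. Fdx1 and Fdxr, outside the 1660, read below 1 there.

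Cyp11a1 was listed at 0 in EMPs and had 0.67 FPKM in liver MCPs, 20.1 FPKM in E11.5 limb MCPs, 70.8 FPKM in E14.5 limb MCPs and 124 FPKM in skin cells. The macrophage-labelled library read 0.10 FPKM. The mast lineage libraries thus followed their order of age and tissue without overlap of the counting intervals, and the liver progenitors and macrophage-labelled cells lay at the bottom. The liver MCP value rested on about 17 fragments and the macrophage-labelled value on about 2.42, while skin held about 2401. A listing of 0 in EMPs, if it is not a failed estimate, allowed up to 0.114 FPKM (3 fragments), and the counting intervals of the EMP and macrophage-labelled libraries overlapped. Skin cells had 185 times the FPKM of liver MCPs (95% counting interval 116 to 317). In skin, 73 genes of the table were listed above Cyp11a1, which ranked 74, whereas in liver MCPs it ranked 9486.

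**Figure D1:**
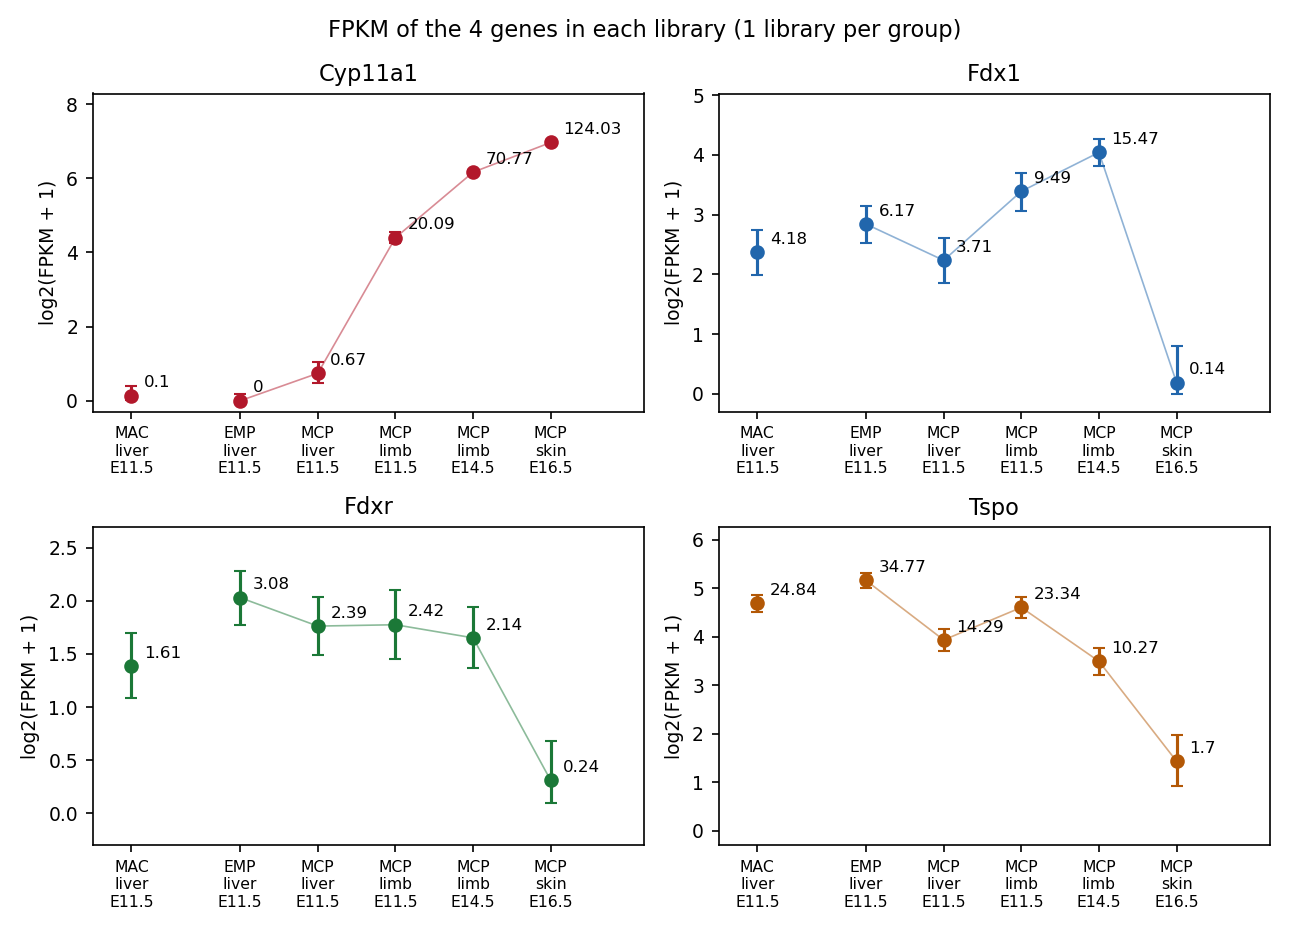
FPKM of Cyp11a1, Fdx1, Fdxr and Tspo in the macrophage-labelled library and, joined by a line, in the EMP and MCP libraries by stage (log2(FPKM + 1), each panel with its own scale). Points are single libraries and bars are 95% counting intervals. Cyp11a1 climbs to 124 FPKM in skin, where the other 3 genes have their lowest values.

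On GRCm38, Cyp11a1 lies on chromosome 9 at 57998024 to 58027031 and Fdx1 on the same chromosome at 51943023 to 51963602. Fdxr lies on chromosome 11 at 115268024 to 115277101 and Tspo on chromosome 15 at 83563573 to 83574203. RefSeq gives Cyp11a1 a pair of start sites, and a gene-level FPKM does not tell which was used. The sequences around both starts, from 250 bases before to 50 after, are shown with those of Fdx1 and Fdxr, because Cyp11a1 and Fdx1 were higher together in the limb while Fdxr was not. They are RefSeq sequences on GRCm38.p6, found for 3 of the 4 genes. Capitals mark TCAAGG, the first letters of the Nr5a1 binding site, on either strand. They likewise mark TATAA, the core letters of the TATA box, on either strand and at any position.
Cyp11a1, upstream start, chr9:57997774-57998073, plus strand: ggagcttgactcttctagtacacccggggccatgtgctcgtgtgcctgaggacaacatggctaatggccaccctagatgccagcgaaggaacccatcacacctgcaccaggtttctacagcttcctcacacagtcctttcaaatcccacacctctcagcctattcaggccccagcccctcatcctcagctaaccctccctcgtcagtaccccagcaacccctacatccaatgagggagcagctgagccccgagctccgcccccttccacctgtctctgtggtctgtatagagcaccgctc
Cyp11a1, downstream start, chr9:58014702-58015001, plus strand: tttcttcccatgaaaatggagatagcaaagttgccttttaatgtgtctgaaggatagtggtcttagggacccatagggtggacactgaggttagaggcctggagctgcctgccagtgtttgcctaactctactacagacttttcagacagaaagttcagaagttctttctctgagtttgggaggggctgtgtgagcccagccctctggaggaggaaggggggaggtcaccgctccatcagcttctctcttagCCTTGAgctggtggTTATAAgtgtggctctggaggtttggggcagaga
Fdx1, chr9:51963553-51963852, minus strand: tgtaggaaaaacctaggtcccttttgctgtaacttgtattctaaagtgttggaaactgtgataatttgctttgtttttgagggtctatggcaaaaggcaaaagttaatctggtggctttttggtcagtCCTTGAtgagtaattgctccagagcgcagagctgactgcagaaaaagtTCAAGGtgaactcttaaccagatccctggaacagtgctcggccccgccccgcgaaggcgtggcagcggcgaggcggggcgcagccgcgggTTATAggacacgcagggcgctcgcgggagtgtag
Fdxr, chr11:115276920-115277219, minus strand: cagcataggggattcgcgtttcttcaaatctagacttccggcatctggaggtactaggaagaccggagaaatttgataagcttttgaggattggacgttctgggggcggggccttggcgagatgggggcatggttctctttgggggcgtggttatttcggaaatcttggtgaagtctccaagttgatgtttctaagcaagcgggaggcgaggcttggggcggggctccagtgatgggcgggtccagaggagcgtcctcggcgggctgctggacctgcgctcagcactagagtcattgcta

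The downstream Cyp11a1 start had TCAAGG (read as ccttga) at position 3 and a TATAA pair, overlapping on opposite strands, at positions 17 and 18, counted from 1 at the annotated start. Fdx1 had TCAAGG at positions -122 and -74 and TATAA (read as ttata) at position 17. The upstream Cyp11a1 start and the Fdxr start had neither. All these TATAA matches lie after the annotated start, so they are not read as its TATA box. Over 32851 RefSeq promoter windows of this length, 14.4% held TCAAGG and 24.9% held TATAA. A site type used by the mast cell regulator Mitf, CACATG, was found at position -220 of the upstream Cyp11a1 start alone among these 4 windows, and in 14.2% of all windows. GATAA, searched as well, was in neither Cyp11a1 window. It was found at position -191 of Fdx1 and -176 of Fdxr, and in 25.4% of all windows. GGGCGG, the letters bound by Sp1, occurred 3 times in Fdxr, once in Fdx1 and once in the upstream Cyp11a1 window, and in 35.7% of all windows. These matches are letters in a window and not sites shown to be bound.

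Fdx1, the electron carrier, read 6.17 FPKM in EMPs, 3.71 FPKM in liver MCPs, 9.49 and 15.5 in limb MCPs of E11.5 and E14.5, and 0.14 in skin cells. The macrophage-labelled library had 4.18 FPKM. Its highest value was thus in the later limb library. In the order of levels the E11.5 limb, EMP, macrophage-labelled and liver MCP libraries each overlapped with the next in their counting intervals, and the top and bottom libraries did not. The skin value amounted to about 1.08 fragments, below the 3 fragments (0.389 FPKM) that a listing of 0 would allow. Fdxr, the reductase, was the lowest of the 4 genes in both limb libraries. It read 3.08 FPKM in EMPs, 2.39 FPKM in liver MCPs, 2.42 and 2.14 in limb MCPs of E11.5 and E14.5, 0.24 in skin cells and 1.61 in the macrophage-labelled library. From EMPs down to the macrophage-labelled library every neighbour in this order overlapped in its counting interval, and skin alone lay apart from its neighbour, on about 4.26 fragments.

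Tspo, the cholesterol-binding membrane protein, was highest where Cyp11a1 was listed at 0. It read 34.8 FPKM in EMPs, 14.3 FPKM in liver MCPs, 23.3 in E11.5 limb MCPs, 10.3 in E14.5 limb MCPs, 1.7 in skin cells and 24.8 in the macrophage-labelled library. The macrophage-labelled library and E11.5 limb MCPs overlapped, as did liver MCPs and E14.5 limb MCPs, and the other neighbours did not. Tspo2, a related gene known from red cells, was listed at 0 in 5 libraries and at 0.36 FPKM in liver MCPs.

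The FPKM of the enzyme was also set against that of its electron carriers. Cyp11a1 was chosen for its rise in these same libraries, so a rise of its ratios is not a separate result. Per length, Cyp11a1 had 0.181 times the FPKM of Fdx1 in liver MCPs, 2.12 times in E11.5 limb MCPs, 4.57 times in E14.5 limb MCPs and 886 times in skin cells, where the Fdx1 value rests on about 1 fragment. Against Fdxr, the ratio was 0.28, 8.3, 33.1 and 517 in the same 4 libraries, the last on about 4.26 Fdxr fragments. Fdx1l, the second mitochondrial ferredoxin (also called Fdx2), which serves iron-sulfur cluster assembly, had more FPKM than Fdx1 in all 6 libraries, by 1.87 times in E14.5 limb MCPs and 3.34 to 8.21 times elsewhere. The lowest Fdx1l to Fdx1 ratio was in the library with most Fdx1, which is the ratio's denominator, so this is not a separate result. Fdx1l itself read 31.7 and 29.0 FPKM in limb MCPs of E11.5 and E14.5.

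Differences were taken as log2(FPKM + 1), which understates changes of low genes, and a gene was called at 2-fold (a difference of 1) where it reached 5 FPKM in either library. Limb MCPs at E11.5 against liver MCPs of the same day had the largest difference of Cyp11a1 among the 6 comparisons, and Fdx1 was called higher with it. Cyp11a1 differed by 3.66 (counting interval 3.32 to 3.96), a ratio of 29.99 between 20.1 and 0.67 FPKM, and ranked 2 of 5153 genes from the top. Fdx1 was 2.56-fold higher (9.49 against 3.71 FPKM, counting interval 1.70 to 3.90), a difference of 1.16 that ranked 294. The background was 7.65% of the 5153 genes called higher and 13.6% called lower. Tspo differed by 0.67 (23.3 against 14.3 FPKM) and was not called, and Fdxr, at 2.42 against 2.39 FPKM, stayed under the expression filter in every comparison. The lower share of all called genes in this comparison was 64.0%, and 50.1% to 52.0% with other scalings (49.8% without the 20 most abundant genes), under which Cyp11a1 and Fdx1 stayed called. The Fdx1 call ended with a pseudocount of 5 (0.73).

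**Figure D2:**
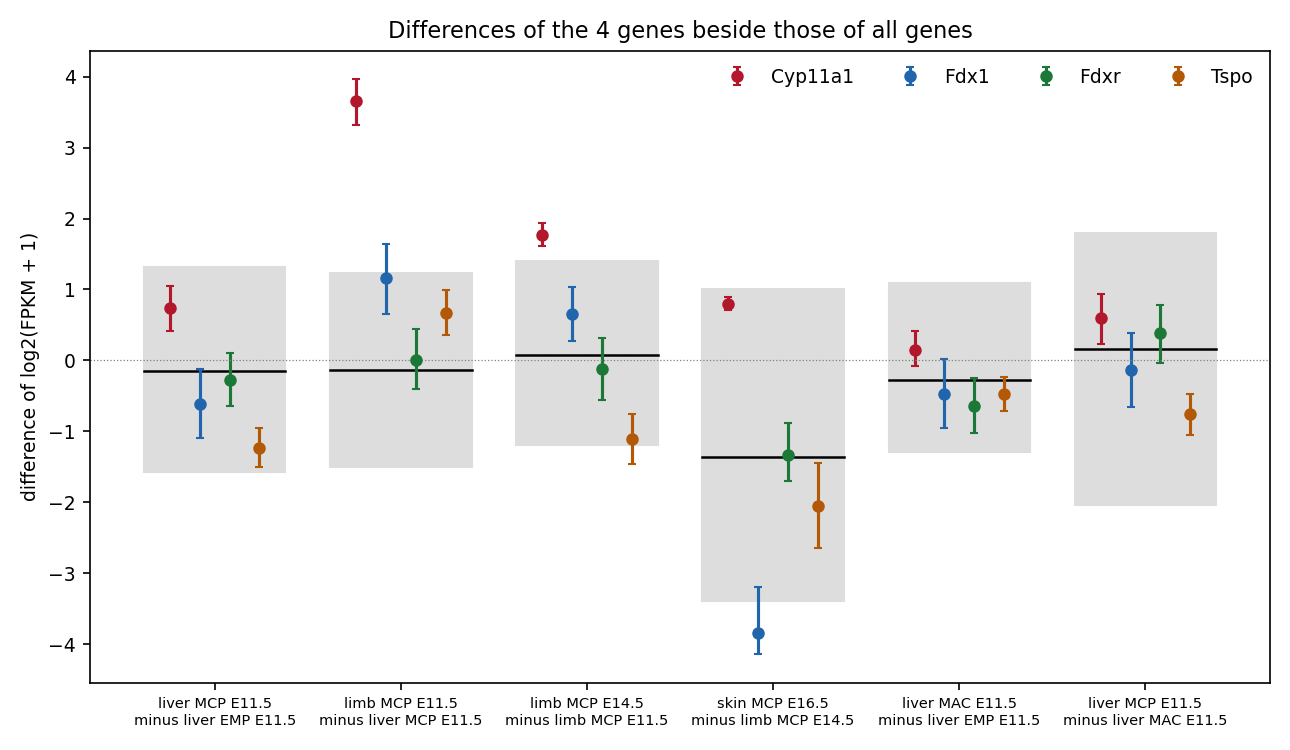
Difference of log2(FPKM + 1) for the 4 genes in each of the 6 comparisons, with 95% counting intervals as bars. Grey boxes span the 5th to 95th percentile of all genes with at least 5 FPKM in either library and black lines mark their median. Cyp11a1 stands above the box in both limb comparisons (3.66 and 1.77), and Fdx1 below it in skin (-3.85).

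In the limb at E14.5 against E11.5, Cyp11a1 was called higher and Tspo lower. Cyp11a1 read 70.8 FPKM at E14.5 against 20.1 at E11.5, a 3.52-fold difference (counting interval 3.15 to 3.95) that ranked 161 of 5034 genes. Tspo read 10.3 FPKM at E14.5 against 23.3 at E11.5, a difference of -1.11 and the 287th lowest. Fdx1 was 1.63-fold higher (15.5 against 9.49 FPKM, 1.22 to 2.20) and did not reach the call. Of the 5034 genes, 9.14% were called higher and 7.01% lower. The lower call of Tspo ended with a pseudocount of 5.

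In the liver at E11.5 Cyp11a1 stayed under 1 FPKM, and Tspo was the only one of the 4 genes with a call. Liver MCPs against EMPs had Cyp11a1 at 0.67 FPKM against a listing of 0, too low for a call. Tspo was lower in liver MCPs (14.3 against 34.8 FPKM, difference -1.23) and Fdx1 read 3.71 against 6.17 FPKM (-0.61), not called. The background was 8.48% of 5463 genes called higher and 14.3% lower, a lower share of 62.8% that went to 50.5% when values were rescaled to equal sums. In the macrophage-labelled library against EMPs none of the 4 genes was called, with Tspo at 24.8 against 34.8 FPKM and Fdx1 at 4.18 against 6.17 FPKM. There 5.42% of 5200 genes were called higher and 10.6% lower, and the lower share of 66.2% went to 35.2% with median-of-ratios scaling. Liver MCPs against the macrophage-labelled library likewise had no call. Cyp11a1 read 0.67 against 0.10 FPKM, a ratio of 6.7 with a counting interval of 1.76 to 45.7, and Tspo 14.3 against 24.8 FPKM (-0.76). In that comparison 17.3% of 5317 genes were called higher and 14.1% lower, and the lower share of 44.9% went to 64.7% with median-of-ratios scaling. These comparisons share libraries, so their differences are not independent of each other.

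Skin cells at E16.5 against E14.5 limb MCPs differed in tissue and age at once. Cyp11a1 read 124 FPKM in skin against 70.8 in limb, 1.75-fold (counting interval 1.65 to 1.87), a difference of 0.80 that missed the call. Fdx1 read 0.14 FPKM against 15.5, a ratio of 0.00905 with an upper counting bound of 0.0486, and its difference of -3.85 was the 121st lowest of 4679 genes. Tspo read 1.7 FPKM against 10.3 (-2.06), the 1367th lowest. Fdxr read 0.24 FPKM against 2.14 (-1.34). The background was uneven here. Of the 4679 genes, 61.5% were called lower and 5.09% higher, and the median difference was -1.36. The Tspo value lay between the 5th and 95th percentiles of these genes, and Fdxr, under the filter, cannot be set against them.

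Scaling decided much of the skin comparison. Over the same 4679 genes, the median was -0.68 with values rescaled to equal sums, -0.12 with median-of-ratios size factors and -0.50 without the 20 most abundant genes. Over the genes that pass the filter after rescaling it was -0.55, 0.25 and -0.30. The lower share of called genes was 92.4% as deposited and 71.9%, 43.8% and 62.8% in these settings. Cyp11a1 then passed the call in all 3, with differences of 1.62, 2.25 and 1.85. Fdx1 remained called lower in all 3, and Tspo was called lower except with median-of-ratios factors (-0.96). In bulk samples, fewer cells of a type and less RNA per cell cannot be told apart.

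**Figure D3:**
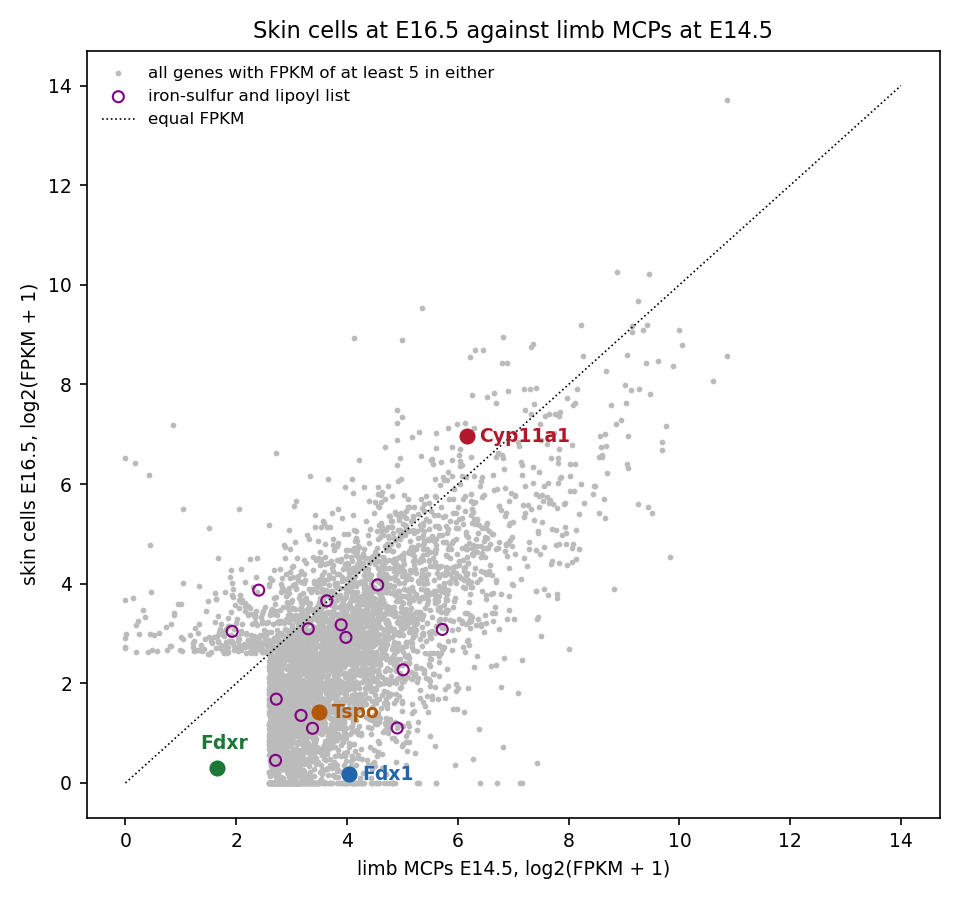
Levels in skin cells at E16.5 (vertical) against E14.5 limb MCPs (horizontal), both log2(FPKM + 1), for genes with at least 5 FPKM in either library (grey), the iron-sulfur and lipoyl list (open circles) and the 4 genes (filled; Fdxr is under the filter). Cyp11a1 lies above the line of equal FPKM at 124 FPKM, and Fdx1 near the floor at 0.14 FPKM.

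The other mitochondrial cytochromes that draw on Fdx1 were near 0. Of 5 listed, 3 are in the table, and Cyp11b2 (aldosterone synthesis), Cyp27a1 (bile acids) and Cyp27b1 (active vitamin D) reached at most 0.2, 1.23 and 0.07 FPKM. The classical enzymes after Cyp11a1 were near 0 too. Hsd3b1, Hsd3b3 and Hsd3b6, of the family that turns pregnenolone into progesterone, peaked at 0.2 FPKM (skin), 0.45 FPKM (liver MCPs) and 0.09 FPKM (EMPs), and Cyp17a1, Cyp21a1 and Cyp19a1, which lead to androgens, corticoids and estrogens, at 0.13, 0.09 and 0.03 FPKM. Star, the cholesterol carrier of adrenal and gonad cells, was listed at 0 in EMPs, E11.5 limb MCPs and skin cells, and reached 0.99 FPKM in liver MCPs. Nr5a1, the regulator that marks those organs, did not exceed 0.11 FPKM. Summed over the 5 adrenal and gonad markers in the table (of 8 listed), levels were 0.06 to 1.69 FPKM per library, lowest in skin, where Cyp11a1 was highest.

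**Figure D4:**
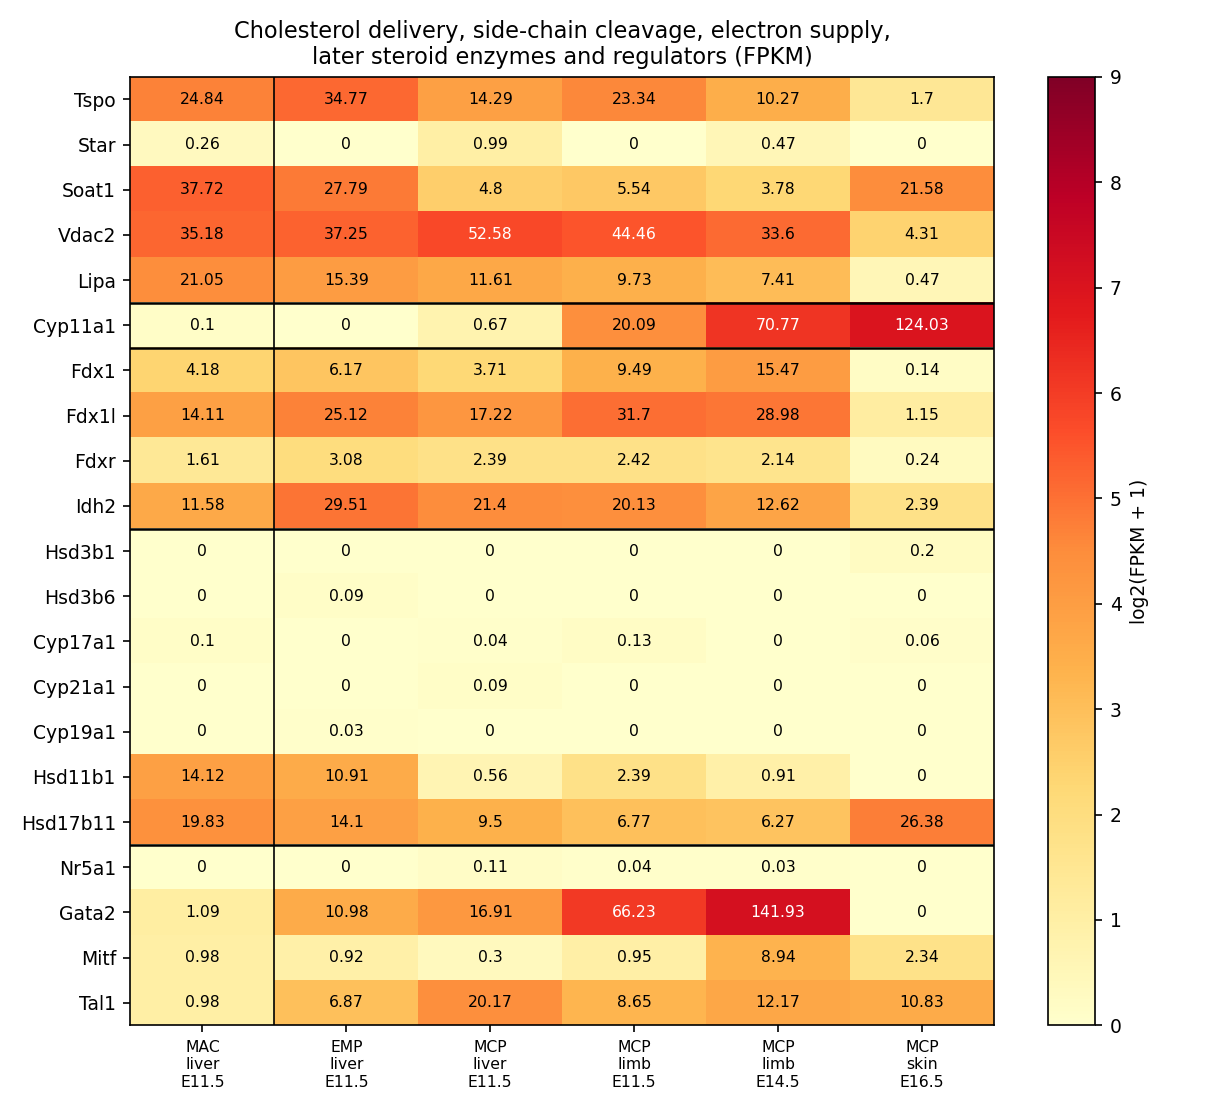
FPKM (printed) and log2(FPKM + 1) (colour) of genes of cholesterol delivery, side-chain cleavage, electron supply, later steroid enzymes and regulators, from top to bottom, in the 6 libraries. Cyp11a1 reaches 124 FPKM in skin while Hsd3b1 stays at 0.2 and Cyp17a1 at 0.06 there.

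Of 24 later steroid genes in the table, 7 to 10 passed the filter in each comparison. At the limb steps 0 of 9 and 0 of 8 were called higher, beside 7.65% and 9.14% of all genes, too few genes to read a difference from. Hsd17b10, a mitochondrial dehydrogenase, was the 1 called lower in limb against liver MCPs (15.0 against 35.6 FPKM). At these steps the list's median difference was -0.43 in limb against liver MCPs (all genes -0.14) and -0.15 at E14.5 against E11.5 (all genes 0.08). Hsd17b11, a lipid droplet steroid dehydrogenase, was the only one called higher in skin (26.4 against 6.27 FPKM, 4.21-fold), while Por, which feeds electrons to the microsomal cytochromes, read 6.06 against 19.0 FPKM. Lower calls in skin were 2 of 7 as deposited (Por and Cyb5b), beside 61.5% of all genes, and 0 under each of the 3 other scalings, with 2 or 3 higher. The calls over all genes moved with these scalings too, to 1125 lower and 1446 higher with median-of-ratios factors. Hsd11b1, which reactivates glucocorticoids, read 0.56 FPKM in liver MCPs against 14.1 in the macrophage-labelled cells, with 10.9 in EMPs, and was listed at 0 in skin.

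Genes of cholesterol delivery were called at the limb steps at about the share of all genes. Of 13 that passed the filter in limb against liver MCPs, 1 was called higher, Lipe, a cholesterol ester lipase (5.37 against 0.99 FPKM), and none lower, beside 7.65% and 13.6% of all genes. At E14.5 against E11.5, 0 of 14 were called higher and 1 lower, again Lipe (0.25 against 5.37 FPKM), beside 9.14% and 7.01% of all genes. In skin, 9 of 13 were called lower (61.5% of all genes), a median of -1.40 beside -1.36 for all genes, with the outer membrane channel Vdac2 at 4.31 against 33.6 FPKM and the lysosomal lipase Lipa at 0.47 against 7.41 FPKM. With equal sums 3 were lower and 2 higher, beside 1838 and 718 of all genes. With median-of-ratios factors 2 were lower and 4 higher, and the calls over all genes turned too (1125 lower, 1446 higher). Without the 20 most abundant genes 2 were lower and 3 higher, beside 1749 and 1035 of all genes. These counts are too few to set the list apart from all genes. Called higher as deposited was Soat1, which stores cholesterol as esters, at 21.6 FPKM in skin against 3.78 in limb. Soat1 read 4.8 FPKM in liver MCPs against 37.7 in the macrophage-labelled library. Cholesterol synthesis genes had 0 of 13 called in limb against liver MCPs, and 1 to 3 called higher under other scalings. At E14.5 against E11.5, 1 of 13 was called lower, the regulator Srebf2 (6.54 against 17.4 FPKM). In skin 6 of 10 were lower, near the 61.5% of all genes, and none higher as deposited, and with median-of-ratios factors 0 lower and 2 higher.

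Fdx1 also serves protein lipoylation, and its relative Fdx1l serves iron-sulfur cluster assembly, so that list was set beside it. In limb against liver MCPs, 0 of 15 were called higher and 3 lower, the scaffold Iscu (2.03 against 9.03 FPKM), the chaperone Hspa9 (27.4 against 55.8 FPKM) and the lipoyl synthase Lias (1.68 against 5.36 FPKM), with a median of -0.44, beside 7.65% of all genes higher and 13.6% lower. The lower calls were 1 with equal sums or median-of-ratios factors. Fdx1 was called higher in that comparison. At E14.5 against E11.5 in the limb, 2 of 12 were higher (9.14% of all genes) and none lower, Iscu at 9.39 against 2.03 FPKM and Dlst at 31.3 against 14.8 FPKM, so the order of Iscu turned round. In skin, 8 of 14 were lower (61.5% of all genes) and 2 higher as deposited (median -1.05, all genes -1.36), 6 and 2 with equal sums, and 4 and 4 with median-of-ratios factors. Over all genes, median-of-ratios factors gave 1125 lower and 1446 higher. Fdx1l read 1.15 FPKM in skin against 29.0 in limb, a ratio of 0.0397 beside 0.00905 for Fdx1, which rests on about 1 fragment. Dlst, a lipoylated enzyme subunit of the citric acid cycle, read 3.83 against 31.3 FPKM. Of 8 mitochondrial NADPH genes in the table, 5 passed the filter at each limb step and in skin. As deposited, 0 of these were called higher, 1 was lower in limb against liver MCPs (Nadk2, 4.64 against 17.3 FPKM; 13.6% of all genes) and 3 were lower in skin, near the 61.5% of all genes. Idh2, which makes NADPH in mitochondria, read 2.39 FPKM in skin against 12.6 in limb. Alas1, whose product starts the synthesis of the heme that cytochromes carry, read 7.91 FPKM in liver MCPs against 116 in EMPs. Alas1 then stood at 5.76, 3.19 and 0.40 FPKM in E11.5 limb MCPs, E14.5 limb MCPs and skin cells, the reverse of the order of Cyp11a1.

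Among regulators, Gata2, needed for mast cells, read 66.2 FPKM in E11.5 limb MCPs against 16.9 in liver MCPs, and 142 FPKM at E14.5. It was listed at 0 in skin, a library with other such listings. Mitf read 8.94 FPKM in the limb at E14.5 against 0.95 at E11.5, and 2.34 FPKM in skin. Tal1, a blood cell regulator, read 20.2 FPKM in liver MCPs against 0.98 in the macrophage-labelled library. Of 13 regulators in the table, 2 of 5 that passed the filter were called higher in limb against liver MCPs (Gata2 and Crem; 7.65% of all genes) and 1 lower (Tal1; 13.6%). At the later limb step 4 of 7 were called higher (9.14% of all genes) and none lower, and in skin 5 of 7 were lower (61.5%) and none higher as deposited. Both counts include Nr4a1, listed at 0 in 5 libraries, and the skin count includes Gata2, listed at 0 there, which can be failed estimates. Of 13 steroid receptors and their chaperones, 1 of 5 was called lower (Esr1, beside 13.6% of all genes) and none higher in limb against liver MCPs. At the later limb step 1 of 4 was called higher (Nr3c1, beside 9.14% of all genes) and none lower. These are too few genes to read a difference from. As deposited, 3 of 4 were lower and none higher in skin, where 61.5% of all genes were lower. Nr3c1, the glucocorticoid receptor, read 16.7 FPKM in E14.5 limb MCPs against 7.70 at E11.5, and 5.36 FPKM in skin. Esr1, the estrogen receptor alpha, read 29.6 FPKM in EMPs, 15.3 FPKM in liver MCPs, 4.66 and 0.32 in limb MCPs of E11.5 and E14.5, 0.24 in skin cells and 59.0 in the macrophage-labelled library. Fkbp4, a chaperone of steroid receptors, read 2.83 FPKM in skin against 55.6 in limb.

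Genes most like Cyp11a1 were sought among 3820 genes with at least 10 FPKM in any library, by the root mean square difference of profiles centred on their own mean over the 6 libraries. The nearest were Maob, a mitochondrial monoamine oxidase (0.50 log2 units), Ids, a lysosomal sulfatase (0.71), Slc18a2, the transporter that loads monoamines into granules (0.77), and Creb3l1, a transcription factor of the secretory pathway (0.81). Gnaz and Gnai1, inhibitory G protein subunits, followed at 0.82 and 0.87, then Hs6st2, a heparan sulfate sulfotransferase (0.88), and Rab27b, a granule secretion GTPase (0.92). All 8 read at most 2.15 FPKM in liver MCPs and at least 30.5 FPKM in skin cells, which follows from their choice by likeness to Cyp11a1 in these libraries. Maob and Gnaz had their top value in E14.5 limb MCPs and the other 6 in skin. The other 3 members were far from Cyp11a1, at 3.29 (Fdx1), 3.25 (Fdxr) and 3.90 (Tspo), and closer to each other, at 0.77 to 0.97. All 3 were lowest in skin, where 61.5% of all genes were called lower than in E14.5 limb MCPs. No distance typical of all genes is given here, so these values do not set the 3 apart as a group.

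**Figure D5:**
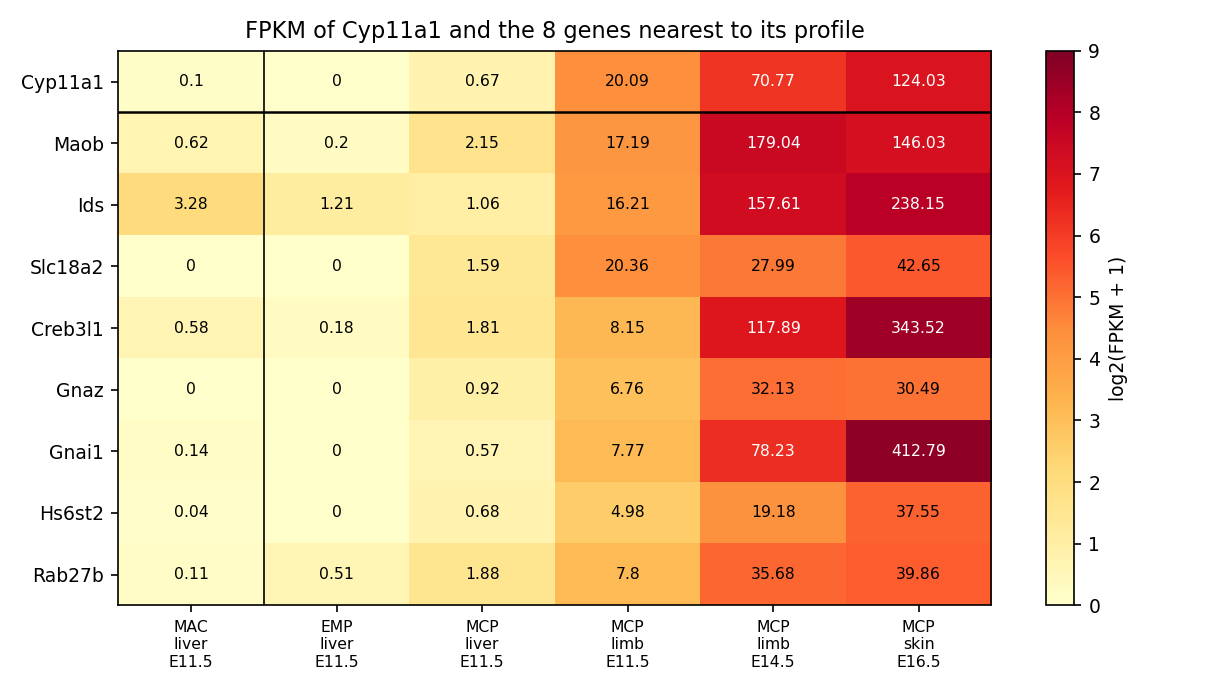
FPKM (printed) and log2(FPKM + 1) (colour) of Cyp11a1 (top row) and the 8 genes with the smallest profile distance to it, nearest first, in the 6 libraries. In skin they read 30.5 to 413 FPKM, and in EMPs at most 1.21.

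Fdx1 was closest to Csk, a kinase that restrains Src (0.25), Mrpl34, a mitochondrial ribosomal protein (0.26), Eml4 (0.26) and Ppp1r14b (0.29). Fdxr was closest to Eif4h, a translation factor (0.08), and Dync1h1, Reps1 and Csnk2a1 were at 0.09 each. Fdxr reached at most 3.08 FPKM, and the pseudocount of 1 flattens so low a profile, which limits this likeness. Fdxr read 0.24 FPKM in skin against 2.14 in E14.5 limb MCPs, and Eif4h 19.35 against 50.84 FPKM. Tspo was closest to Hmha1 (0.15), Tpcn1, an endolysosomal channel (0.17), Atg101 (0.20) and Scap, the sterol sensor that escorts Srebf2 (0.23). Of 5432 genes reaching 5 FPKM in the mast lineage, 88 were higher at each of the 3 steps from liver MCPs to limb at E11.5, limb at E14.5 and skin, with at least 4-fold between the ends. Without that limit 164 were higher and 781 lower at each step. By its difference between skin and liver MCPs, Cyp11a1 ranked 8 among those 88 genes and 11 among all 5432. The skin step moves with the scaling.

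Markers of other cells were read beside Cyp11a1. The 9 mast cell markers summed to 129 FPKM in EMPs, 374 FPKM in liver MCPs, 783 and 3613 in limb MCPs of E11.5 and E14.5, 15644 in skin cells and 66.2 in the macrophage-labelled library. The 4 basophil markers summed to 0.95, 11.2, 8.88, 85.5, 61.7 and 1.28 FPKM in the same libraries, and the 3 T cell markers to 0.1, 1.82, 6.25, 2.57, 3.92 and 1.2 FPKM. The basophil sum was thus lower in E11.5 limb than in liver MCPs and highest in the later limb library, but its markers did not move together. Cd200r3 read 3.80 FPKM in E11.5 limb against 9.10 in liver MCPs. Mcpt8 alone of the 4 was higher there, at 4.09 against 0.50 FPKM. Prss34, at 60.4 FPKM, made up most of the later limb sum. The T cell sum was highest in E11.5 limb MCPs. Of the mast cell sums, Cpa3 alone made up 13494 FPKM in skin and 1856 FPKM in E14.5 limb MCPs. In skin against E14.5 limb, 3 of the 9 mast cell markers were called higher (Cpa3, Fcer1a and Mcpt4), beside 5.09% of all genes. Gata2, listed at 0 in skin, was called lower, beside 61.5% of all genes. Fibroblast collagens (3 of 3 at 1 FPKM or more) summed to 49.8 FPKM in E14.5 limb MCPs and 10.8 in skin, and to at most 0.42 elsewhere. None of the basophil markers was at 0 in limb or skin, and 1 T cell marker was at 0 in skin. Outside the macrophage-labelled library the macrophage markers summed to 0.13 to 14.8 FPKM, lowest in skin. Hepatocyte, keratinocyte and muscle markers summed to at most 3.18, 0.47 and 4.52 FPKM in any library. The 4 neutrophil markers summed to 9360 FPKM in EMPs, 911 in liver MCPs, 440 in E11.5 limb MCPs, 1.74 in E14.5 limb MCPs, 1.25 in skin and 5120 in the macrophage-labelled library. In liver MCPs they thus exceeded the mast cell markers, with Mpo alone at 878 FPKM. The 4 erythroid markers summed to 9.14 FPKM in E11.5 limb MCPs against 112 in liver MCPs, so both sets were lower at the step where Cyp11a1 and Fdx1 were called higher. The part of these cells in the Cyp11a1 values was not tested.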

How the data were processed

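Sorted mouse embryo cells gave 6 bulk RNA libraries, 1 per group, with groups taken from the sample titles. The authors deposited 1 table of FPKM values with 2 decimals, for which the submitters' processing notes name RSEM, Bowtie2 and the build mm10 (GRCm38). Tool versions and annotation: not given in the sources used here. No counts were used, so no count model was fitted. Library preparation was done by a sequencing service per the labels' protocols, from TRIzol RNA.

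Of 17913 rows, 4 with a repeated name were dropped. Differences were taken on log2(FPKM + 1), and a gene was called at 2-fold where either library reached an FPKM of 5. With 1 library a group no p-value was computed. Depth was the library total that brought 1384 single-transcript genes (600 to 2500 bases in GENCODE M21, less 50) closest to whole fragments, an approach picked once values were known. It put 70.5% to 76.0% of usable values no more than 0.2 from a whole number, where chance gives 40%. Member fragments used transcripts of 2120 (Cyp11a1), 875 (Fdx1), 1948 (Fdxr) and 837 bases (Tspo), and intervals scale with these lengths. The depth estimate and the calls were tested on simulated data.

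The members and all gene lists (9 pathway and 12 marker lists) were chosen with earlier results of these data known. Named genes were the 4 members, the 8 genes nearest to Cyp11a1 and the 4 nearest to each other member (leaving out predicted genes, histones, small RNAs and ribosomal proteins), up to 4 members a list at 5 FPKM or more with the largest differences, and the textbook steroid genes. Other genes named with values (Tspo2, Hsd3b3, Alas1, Mpo, Lias, Srebf2, Cyp11b2, Cyp27a1, Cyp27b1, Crem, neighbours, and those behind a count of 5 or fewer) were named after their values were seen. Some results of the cholesterol synthesis and heme lists are not reported here. Alternatives were pseudocounts of 0.1 and 5, rescaling to equal sums (as TPM does), median-of-ratios factors, leaving out the 20 most abundant genes, no filter, an FPKM of at least 20 and a 4-fold call. Analyses used Python 3.11.15 with pandas 2.3.3 and scipy 1.17.1.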

Additional observations from a re-analysis of the deposited data

How the results depend on the processing

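No paired analysis was possible because each group held 1 library. Of the recomputed member differences, 100 stayed within their counting interval, 20 moved out of it and none of the called ones changed sign. The pseudocount moved Cyp11a1 where levels were low. With 0.1 its difference was 2.94 in liver MCPs against EMPs, 4.71 in limb against liver MCPs at E11.5, 1 in the macrophage-labelled library against EMPs and 1.94 in liver MCPs against the macrophage-labelled library. With 5 it was 0.18, 2.15 and 0.15 in the first, second and last of these, and 1.59 in E14.5 limb MCPs against E11.5. In skin against limb, Cyp11a1 differed by 1.62 (equal sums), 2.25 (median-of-ratios) and 1.85 (without the 20 most abundant genes), against 0.80 as deposited, which made 1 member called higher in each of the 3 in place of 0. Members called in skin as lower numbered 2 as deposited, 1 with median-of-ratios and 0 at an FPKM of at least 20. In limb against liver MCPs, 2 members were called higher and 1 with a pseudocount of 5, at an FPKM of at least 20 or at 4-fold. At 4-fold, 0 were called higher or lower in limb at E14.5 against E11.5 and 0 lower in liver MCPs against EMPs, in place of 1 each, and a pseudocount of 5 left 0 lower in limb at E14.5 against E11.5. Median-of-ratios factors added 1 lower call (Tspo) in liver MCPs against the macrophage-labelled library. Of the 8 genes nearest to Cyp11a1, 4 were kept with a pseudocount of 5, 3 when ranked by Pearson r and 5 without the skin library. The cause of these moves was not tested beyond the settings' own construction.

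Of counts over all genes, 54 moved by over 1.5 times and 42 did not. Calls at 4-fold were 0.08 to 0.5 of the main counts, at an FPKM of at least 20 0.28 to 0.44, and with a pseudocount of 5 0.35 to 0.61 where they moved. Scaling moved the skin counts, 238 higher and 2879 lower as deposited, to 718 and 1838 (equal sums), 1446 and 1125 (median-of-ratios) and 1035 and 1749 (without the 20 most abundant genes). Median-of-ratios factors also took the lower calls of the macrophage-labelled library against EMPs to 211 from 552, those of limb against liver MCPs to 460 from 699, and the higher calls in the contrast of liver MCPs with macrophage-labelled cells to 510 from 918. Among medians of all genes, the largest shifts outside skin came with median-of-ratios factors, to 0.01 from -0.27 in the macrophage-labelled library against EMPs and to -0.09 from 0.16 in liver MCPs against that library, over the same genes. Of list counts, 97 moved by over 1.5 times and 159 did not. Depth limits Fdx1, Fdxr and Tspo in skin and Cyp11a1 in the liver, all at 17 fragments or fewer.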

Other observations

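The protein-coding neighbours of Cyp11a1 on chromosome 9 did not share its levels. Sema7a, on its left, read at most 0.43 FPKM and Ccdc33, on its right, at most 0.13 FPKM in any library. Beside Fdx1, Rdx, which links actin to the membrane, read 23.2 FPKM in skin cells against 75.8 in E14.5 limb MCPs, while Arhgap20 read at most 0.83 FPKM. These genes were chosen by their position, after the values of the members had been seen.

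Nr4a1, an immediate early nuclear receptor that also drives steroid genes in gonad cells, was listed at 104 FPKM in E14.5 limb MCPs and at 0 in the other 5 libraries. A listing of 0 in this table can be a failed estimate, so no fold is given.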
